A study of Mus musculus with 36 samples.

Results

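The 9 genes described here encode cytosolic sensors of foreign or misplaced nucleic acids and of bacterial cell-wall fragments, together with 2 adaptors that carry their signals. They were chosen by name from the 54532 genes of the count table: the RIG-I-like receptor genes Ddx58, Ifih1 and Dhx58, their adaptor Mavs, the nucleic acid sensor genes Zbp1 and Aim2, the adaptor Tmem173 (STING), and the NOD-like receptor genes Nod1 and Nod2. In mm10 the gene models lie at chr4:40203773-40239828 (Ddx58), chr2:62595798-62646255 (Ifih1), chr11:100694884-100704271 (Dhx58), chr2:173206612-173218923 (Zbp1) and chr6:54923949-54972612 (Nod1) on the minus strand, and at chr2:131234063-131248025 (Mavs), chr1:173350879-173466040 (Aim2) and chr8:88647315-88688474 (Nod2) on the plus strand, with Tmem173 on the minus strand of chromosome 18; counts cover all exons of a gene. All 9 were present and passed the low-count filter in each of the 12 comparisons below. The cells were bone-marrow-derived macrophages, grown from marrow with macrophage colony-stimulating factor, from female C57BL/6 mice aged 13 to 17 weeks. WT cells carried Bmal1 flox/flox alleles, and KO cells carried the same alleles with LysM-Cre, a Cre recombinase driven from the myeloid lysozyme locus, so that deletion of the clock gene Bmal1 (Arntl) is limited to cells that express Cre and may be incomplete. For 6 h the cells received DMSO vehicle, 100 µM CCM (Core Circadian Modulator, a small molecule that binds the PASB domain of BMAL1), 100 nM LPS (lipopolysaccharide of the Gram-negative bacterial wall), or LPS and CCM together (LPS+CCM). With 3 WT and 6 KO libraries per treatment there were 36 RNA-sequencing libraries, and the comparisons ask how LPS, CCM and loss of Bmal1 changed the transcripts of these sensors.

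RIG-I-like receptors bind double-stranded viral RNA in the cytosol and signal through MAVS on mitochondria to induce type I interferon, whereas STING relays the signal of cytosolic DNA sensing, AIM2 assembles an inflammasome on cytosolic DNA, and ZBP1 binds left-handed nucleic acid and can start necroptosis. NOD1 and NOD2 recognise fragments of bacterial peptidoglycan and signal through the kinase RIPK2 to NF-κB. LPS itself is sensed at the cell surface by Toll-like receptor 4, and many of these sensor genes are known as interferon-stimulated genes in macrophages.

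Library totals ranged from 13469262 to 28288923 reads assigned to genes, and levels are given as CPM, a library's count of a gene scaled to a common total, after scaling by trimmed mean of M-values (TMM) factors. KO replicate 6 stood apart in all 4 treatments, with a mean correlation of 0.899 to 0.940 with the libraries of its own group, against 0.967 to 0.976 for the other KO libraries and 0.984 to 0.990 for WT. The summed level of 7 neutrophil markers was 1030 to 1106 CPM in its libraries, 387 to 999 CPM in the other KO libraries and 380 to 624 CPM in WT, and the sum of 7 macrophage markers was 11179 to 13312 CPM, 11235 to 19983 CPM and 15814 to 19356 CPM in the same order; no marker of either list was at 0 throughout a group. Of the neutrophil markers, S100a8, S100a9 and Ngp reached 405, 479 and 275 CPM over all libraries. Camp, Mpo, Elane and Ly6g reached at most 49.6, 34.4, 25.1 and 0.56 CPM. KO replicate 6 also departed with gene length, as described next, and the part of that in these marker sums was not tested. Arntl, the targeted gene, stood at 7.52 to 12.9 CPM in WT and 2.02 to 10.8 CPM in KO, and 11 of the 24 KO libraries lay within the WT range; the count covers the whole gene, including exons outside the floxed segment.

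The departure of KO replicate 6 varied with the length of the gene model; its part in the KO results was not tested beyond leaving the replicate out. For the 4125 tested genes with gene models of 6 kb and over, its median log2 CPM differed from the mean of the other 5 KO libraries by -0.91 to -0.57 over the 4 treatments, while for the 3600 genes under 2 kb it differed by 0.49 to 0.58. Each other KO replicate was set against the other 5 libraries with replicate 6 among them, and the median for the long genes then lay between -0.20 and 0.30. The lowest was that of KO LPS+CCM replicate 5, in which the median for genes under 2 kb was 0.36, so that the pattern was not limited to replicate 6. Ddx58 (7.05 kb) and Ifih1 (8.165 kb), the longest of the 9, were lower in replicate 6 by differences of -1.39 to -0.82 and -1.69 to -0.65 on the log2 scale, whereas the shorter Dhx58 (3.272 kb) was higher by 0.11 to 0.55. Mavs (3.345 kb) was also lower, by differences of -0.89 to -0.39, as was Nod2 (5.014 kb), by -1.63 to -0.45. KO results are given with and without replicate 6 where it changed a call. KO LPS+CCM replicate 5, which stays in those fits, departed as well. Its chi-square per degree of freedom, a measure of disagreement beyond sampling noise, was 150 to 155 against replicates 1, 3 and 4 of that group. Among replicates 1, 3 and 4 it was 10.1 to 16.8, and replicate 2 stood at 50.3 to 56.9 against replicates 1, 3, 4 and 5.

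**Figure D1:**
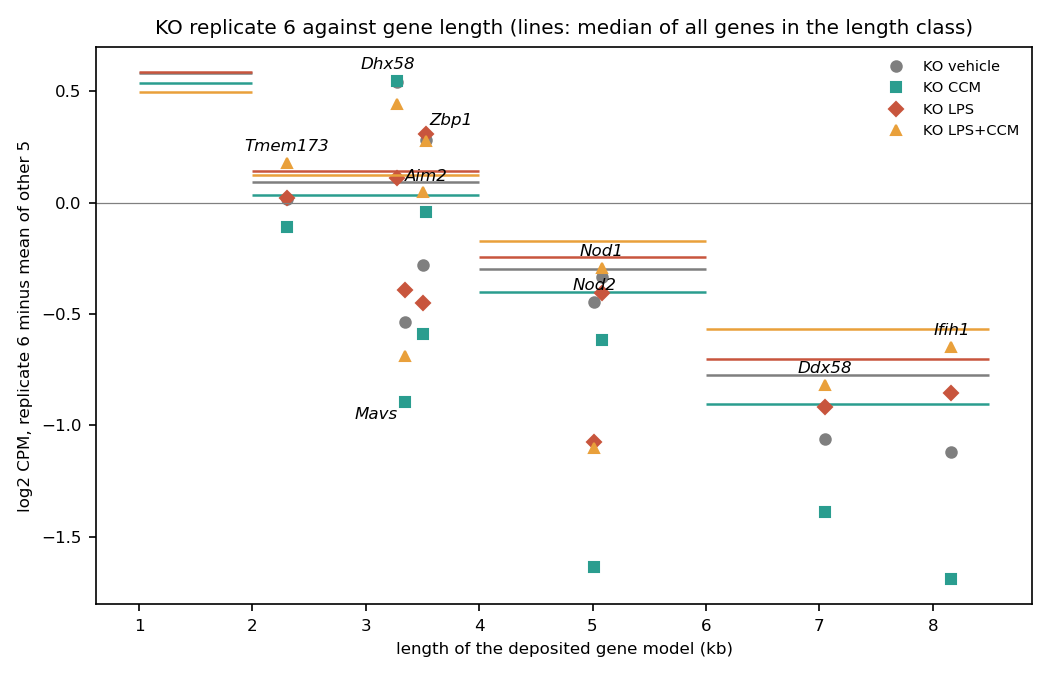
Difference in log2 CPM between KO replicate 6 and the mean of the other 5 KO libraries (y axis) against the length of the gene model in kb (x axis), with 1 symbol per gene and treatment and horizontal lines for the median of all tested genes in each length class. Ifih1 and Ddx58 at 7 kb and over lie at or below -0.65, and Dhx58 at 3.272 kb lies at or above 0.11.

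Promoter sequences were in the RefSeq table for 6 of the 9 genes (Ddx58, Ifih1, Mavs, Aim2, Nod1 with 2 start sites, and Nod2). The 250 bases upstream of each start site were searched on both strands for an interferon-stimulated response element (2 copies of GAAA with 2 bases between them, present in 2.98% of 32851 promoters), a κB site (GGGNNTTCC, 4.98%), a STAT site (TTCNNNGAA, 7.02%) and the E-box that BMAL1-CLOCK binds (CACGTG, 6.02%). None of the 6 genes held the response element or CACGTG in this window, the κB letters occurred in Nod2 219 to 211 bases upstream, and the STAT letters occurred upstream of the second Nod1 start site (193 to 185 bases). A variant of the response element with a spacer of 1 base (GAAANGAAA, 2.68% of promoters), added after the sequences had been seen, occurred in Ddx58 60 to 52 bases upstream. The stretches 250 to 41 bases upstream are shown for 3 strongly induced genes and, for contrast, for Mavs, read 5′ to 3′ on the strand of the gene in build GRCm38.p6, with these matches in capitals: Ddx58 at chr4:40239866-40240075 (minus strand), Ifih1 at chr2:62646296-62646505 (minus strand), Mavs at chr2:131233813-131234022 (plus strand) and Nod2 at chr8:88647097-88647306 (plus strand).
Ddx58: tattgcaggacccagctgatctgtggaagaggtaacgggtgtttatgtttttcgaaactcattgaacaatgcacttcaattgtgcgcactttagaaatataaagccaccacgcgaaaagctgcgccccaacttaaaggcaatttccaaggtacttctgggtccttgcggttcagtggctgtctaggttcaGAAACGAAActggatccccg
Ifih1: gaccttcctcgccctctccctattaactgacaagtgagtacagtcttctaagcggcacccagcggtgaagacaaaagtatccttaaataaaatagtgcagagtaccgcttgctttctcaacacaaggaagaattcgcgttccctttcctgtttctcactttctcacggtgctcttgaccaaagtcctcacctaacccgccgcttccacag
Mavs: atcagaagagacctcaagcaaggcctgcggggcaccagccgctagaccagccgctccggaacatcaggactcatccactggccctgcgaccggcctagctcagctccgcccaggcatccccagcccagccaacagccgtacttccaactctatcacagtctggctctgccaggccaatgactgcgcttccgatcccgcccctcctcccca
Nod2: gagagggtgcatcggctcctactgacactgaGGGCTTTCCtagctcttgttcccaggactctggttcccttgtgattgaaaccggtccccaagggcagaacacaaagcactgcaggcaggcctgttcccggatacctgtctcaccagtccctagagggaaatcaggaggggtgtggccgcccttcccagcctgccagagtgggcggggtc

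In unstimulated WT macrophages the adaptors were the most abundant of the 9 per kilobase of gene model, a scale on which levels of different genes can be compared. Tmem173 stood at 13.5 ± 1.2 CPM per kb (SD, n = 3) and Mavs at 12.3 ± 0.31, followed by Aim2 at 9.97 ± 1.1 and Dhx58 at 6.49 ± 0.63. Nod1 (4.44 ± 0.15), Ddx58 (3.76 ± 0.28) and Ifih1 (3.40 ± 0.24) were lower, and Zbp1 (1.30 ± 0.15) and Nod2 (0.619 ± 0.087) lowest. After LPS the order was nearly turned over: Zbp1 led at 125 ± 4.6 CPM per kb, ahead of Ifih1 (108 ± 3.8), Dhx58 (95.2 ± 2.2) and Ddx58 (84.0 ± 0.62), while Mavs (9.74 ± 0.50) and Tmem173 (9.36 ± 1.4) came last.

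**Figure D2:**
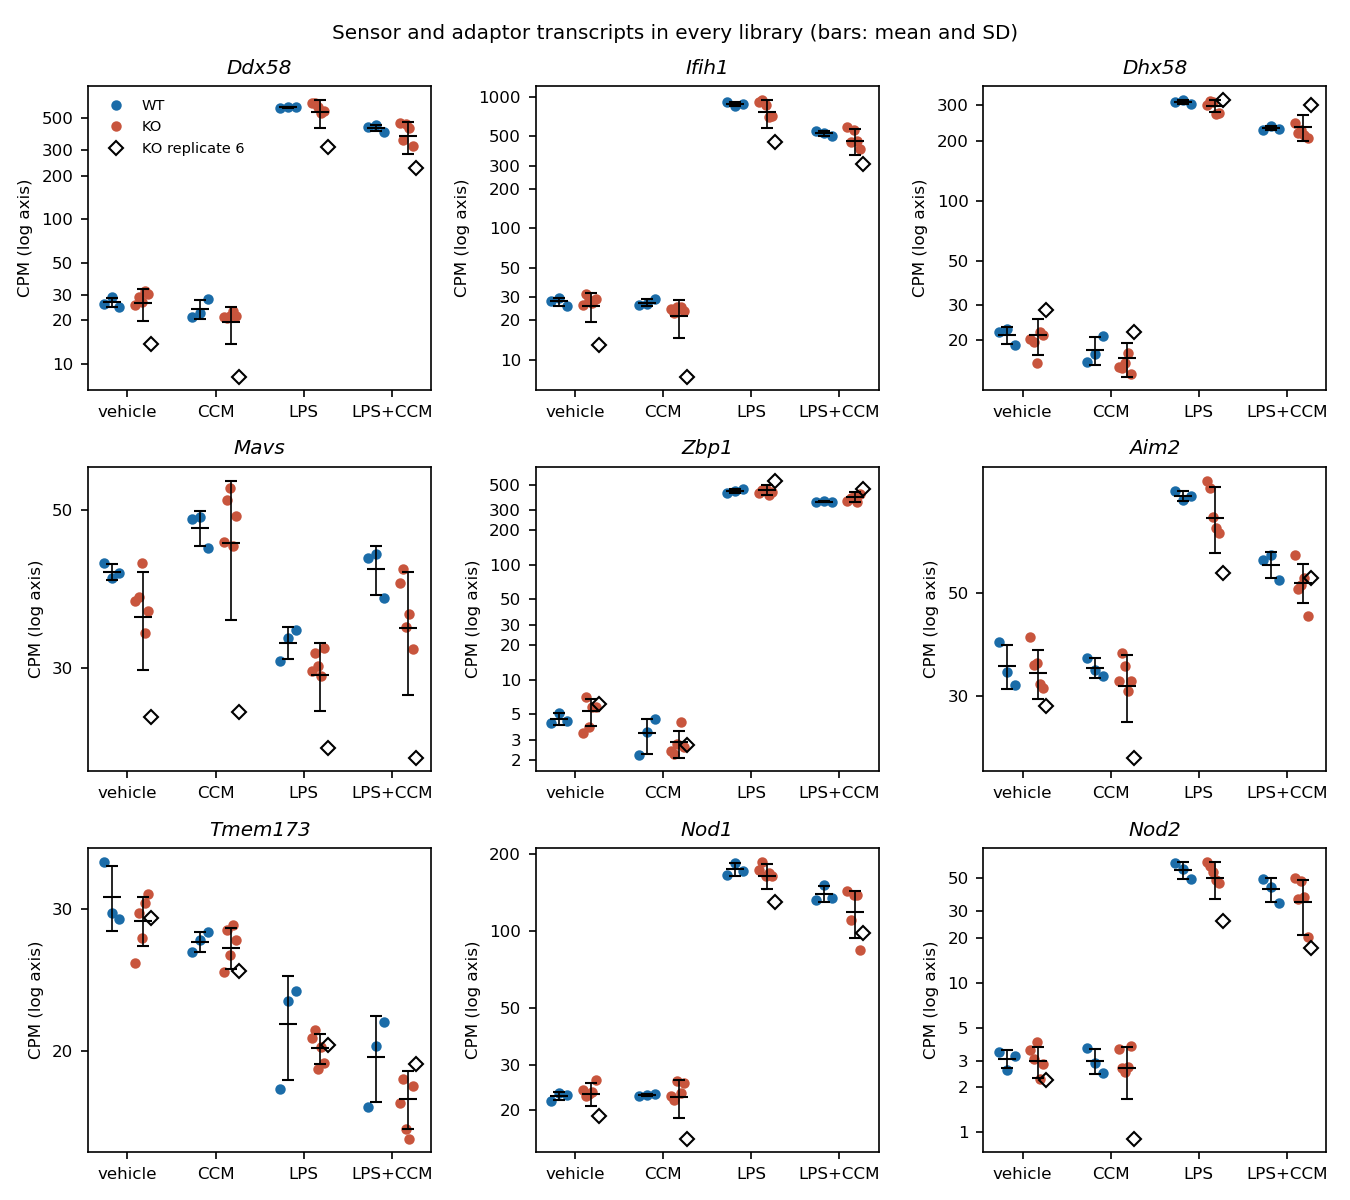
CPM of each gene (log axis) in all 36 libraries by treatment, WT in blue and KO in red with KO replicate 6 as open diamonds; horizontal and vertical bars give the mean and SD of each group. In 7 panels the LPS and LPS+CCM libraries lie above all libraries without LPS, whereas Tmem173 lies below them and the groups of Mavs overlap.

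LPS raised 7 of the 9 transcripts in WT macrophages and lowered the adaptors Mavs and Tmem173. In edgeR's quasi-likelihood test all 9 passed an adjusted p of 0.05, in a comparison in which 63% of 14501 genes did, 30.6% higher and 32.4% lower. The median log2 fold change was 3.91 over the 9 genes and -0.05 over all genes tested. In bulk RNA such a difference cannot separate a change in RNA per cell from a change in the share of cells that express the gene, and although the study gives its n in mice, the labels do not tie a library to an animal or culture, so that p-values measure the spread between these libraries.

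All 3 RIG-I-like receptor genes rose steeply. Ddx58, which encodes RIG-I, measured 26.0, 28.7 and 24.8 CPM in the WT vehicle libraries and 587, 593 and 595 CPM after LPS. Its KO libraries ran from 13.6 CPM through a median of 27.9 to 31.9 CPM with vehicle and from 314 through 577 to 639 CPM with LPS. Vehicle and LPS libraries were thus far apart in both genotypes, and the lowest KO value in each group was that of replicate 6. The log2 fold change was 4.51 ± 0.07 (SE) in WT, a 22.8-fold rise with edgeR adjusted p = 3.32e-11, and 4.38 ± 0.22 in KO with edgeR adjusted p = 2.74e-09.

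Ifih1, which encodes MDA5, the sensor of long double-stranded RNA, had the largest rise of the 3. It went from 28.2, 29.5 and 25.7 CPM to 908, 847 and 880 CPM in WT, and from a KO median of 27.7 CPM (13.02 to 31.8) to 792 CPM (455 to 944). These were log2 fold changes of 5.01 ± 0.08 in WT and 4.89 ± 0.23 in KO. Dhx58 encodes LGP2, a family member that lacks the signalling domains and modulates the other receptors. It went from 22.0, 22.8 and 18.9 CPM to 311, 319 and 305 CPM in WT, and from a KO median of 20.7 CPM (15.4 to 28.5) to 307 CPM (272 to 319). Its log2 fold changes were 3.91 ± 0.08 and 3.82 ± 0.15, and reads of the antisense gene Dhx58os, which overlaps it and held at most 78 counts in a library, cannot be told apart from its own since whether the counting used strand is not given.

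The adaptor Mavs moved the other way by a small amount. In WT it stood at 42.1, 40.1 and 40.7 CPM with vehicle and 30.7, 33.1 and 33.9 CPM with LPS, without overlap, and the log2 fold change was -0.30 ± 0.06 with edgeR adjusted p = 0.00218. In KO the medians were 36.7 CPM (25.6 to 42.1) and 29.97 CPM (23.2 to 32.1), and the log2 fold change of -0.27 ± 0.11 missed the threshold with edgeR adjusted p = 0.0629. Without KO replicate 6 it was -0.29 ± 0.07 and with replicate number as a block -0.26 ± 0.06, and it passed in both fits; over all alternatives the adjusted p ran from 0.000182 to 0.184.

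Among the DNA and left-handed nucleic acid sensors the response was uneven. Zbp1 was nearly silent without LPS, at 4.21, 5.19 and 4.36 CPM in WT, and reached 426, 441 and 458 CPM with it. The log2 fold change of 6.62 ± 0.09, or 98.6-fold, placed it 131st of 14501 genes by size of change. In KO it went from a median of 5.80 CPM (3.44 to 7.05) to 440 CPM (409 to 539), a log2 fold change of 6.41 ± 0.21. Aim2 rose only 2.37-fold in WT, from 39.1, 33.8 and 31.8 CPM to 83.0, 79.1 and 80.8 CPM (log2 fold change 1.24 ± 0.08), and in KO from a median of 33.4 CPM (28.5 to 40.2) to 71.0 CPM (55.3 to 87.1), by 1.11 ± 0.11. Its gene model contains part of Cadm3 on the other strand, whose counts never exceeded 11.

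Tmem173 encodes STING, the endoplasmic reticulum adaptor downstream of the DNA sensor cGAS, and it fell after LPS in both genotypes. Its WT libraries measured 34.3, 29.7 and 29.1 CPM with vehicle and 17.9, 23.1 and 23.7 CPM with LPS. The KO libraries ran from 25.7 to 31.3 CPM with vehicle and from 19.0 to 21.2 CPM with LPS, so that the groups did not overlap in either genotype and replicate 6 lay among its fellows. The log2 fold changes were -0.49 ± 0.11 in WT (edgeR adjusted p = 0.00278) and -0.52 ± 0.08 in KO (edgeR adjusted p = 0.000187).

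Both NOD genes rose, Nod2 from a much lower starting level. Nod1 measured 21.7, 23.1 and 22.8 CPM with vehicle and 167, 186 and 172 CPM with LPS in WT, a 7.91-fold rise (log2 fold change 2.98 ± 0.07), and its KO medians were 23.2 CPM (18.8 to 26.0) and 167 CPM (129 to 187). Nod2 measured 3.45, 2.62 and 3.23 CPM with vehicle and 63.4, 57.9 and 49.2 CPM with LPS in WT, an 18.5-fold rise (log2 fold change 4.21 ± 0.13). In KO its medians were 2.96 CPM (2.25 to 4.03) and 52.0 CPM (25.9 to 64.4), and the KO log2 fold changes were 2.84 ± 0.10 for Nod1 and 4.05 ± 0.22 for Nod2.

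In KO, 8 of the 9 genes passed the edgeR test after LPS against a background of 47.1% of 13648 genes. The background rose to 69.4% without replicate 6 and to 71.6% with replicate number as a block, and all 9 genes passed in both. The LPS responses of WT and KO were compared directly by an interaction of genotype and LPS. None of the 9 genes passed in edgeR, nor did any have an unadjusted p under 0.05, and DESeq2 and limma-voom called none of them. The interaction estimates ran from -0.18 (Zbp1) to 0.05 (Mavs) on the log2 scale with 95% intervals that together spanned -0.82 to 0.53. Over all genes, edgeR called 0% of 15093 for this interaction.

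**Figure D3:**
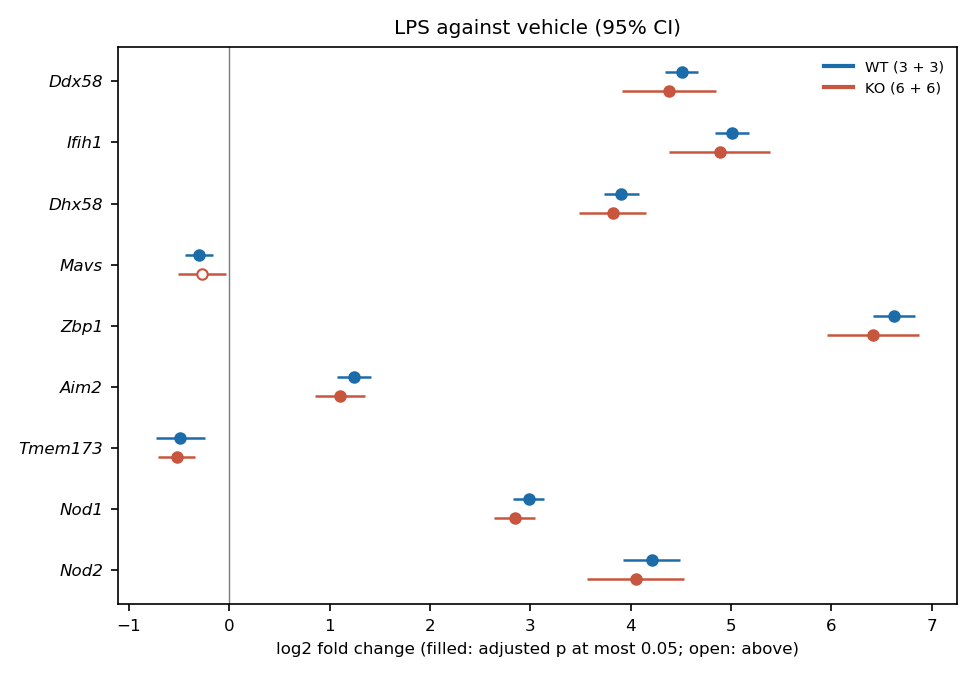
Log2 fold change of LPS against vehicle with its 95% confidence interval for each gene, WT in blue (3 libraries a group) and KO in red (6 a group); filled points passed an adjusted p of 0.05 in edgeR and open points did not. The WT and KO intervals of every gene overlap, the 7 induced genes lie at 1.11 or above, and Mavs and Tmem173 lie below 0.

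CCM added to LPS lowered the RNA of 6 of the 9 genes in WT macrophages and raised Mavs. The 7 passed in edgeR where 11.9% of 13579 genes did, 7.78% lower and 4.15% higher. The median log2 fold change was -0.41 over the 9 genes and 0.01 over all genes tested. This comparison and that of LPS with vehicle share the LPS libraries.

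Ifih1 had the largest drop, from 908, 847 and 880 CPM with LPS to 548, 528 and 504 CPM with LPS+CCM, or 57.3% to 62.3% of the LPS level of the library with the same number. The log2 fold change was -0.73 ± 0.05 with edgeR adjusted p = 2.72e-05. Ddx58 went from between 587 and 595 CPM to 430, 447 and 402 CPM (-0.47 ± 0.05), and Dhx58 from between 305 and 319 CPM to 227, 238 and 227 CPM (-0.42 ± 0.04). All 3 receptor genes stayed far above their vehicle libraries, none of which exceeded 29.5 CPM. Mavs ran in the opposite direction to the receptors that signal through it, with 42.8, 43.4 and 37.6 CPM under LPS+CCM against 30.7 to 33.9 CPM under LPS, a log2 fold change of 0.35 ± 0.07 with edgeR adjusted p = 0.0121. Without WT LPS+CCM replicate 2 it was 0.31 and no longer passed, and this was the only one of the 7 calls lost by leaving out a library. Its level under LPS+CCM overlapped that of the vehicle libraries.

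Aim2 fell from between 79.1 and 83.0 CPM to 58.7, 60.5 and 53.3 CPM (-0.49 ± 0.06, edgeR adjusted p = 0.000606), and Zbp1, the most strongly induced of the 9, fell least among the genes that passed, from between 426 and 458 CPM to 351, 361 and 354 CPM (-0.31 ± 0.04). Nod1 fell from between 167 and 186 CPM to 133, 151 and 135 CPM (-0.32 ± 0.06, edgeR adjusted p = 0.00787). For Nod2 the groups met, at 49.2 to 63.4 CPM with LPS and 49.7, 43.7 and 34.1 CPM with LPS+CCM, and the log2 fold change of -0.41 ± 0.13 did not pass (edgeR adjusted p = 0.0704). Libraries with the same replicate number deviated together here, and with the number as a block Nod2 passed at -0.42 ± 0.05, against a background that rose to 23.7%; its adjusted p ran from 1.2e-06 to 1 over the alternatives. Tmem173 measured 16.995, 20.3 and 21.7 CPM against 17.9 to 23.7 CPM with LPS, a log2 fold change of -0.13 with a 95% interval of -0.39 to 0.13. All 7 calls rest on fits within WT: when the 36 libraries shared 1 estimate of the spread, none of the 9 passed.

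In KO macrophages none of the 9 genes passed the edgeR test for LPS+CCM against LPS, where 0.112% of 13386 genes did. An unadjusted p under 0.05 was found for 6 of the 9 and for 1070 of all genes tested. DESeq2 called 2 of the 9 and 180 of 13868 genes, and limma-voom 8 of the 9 and 768 of 13386. The errors of these 4 estimates were wider than in WT: -0.57 ± 0.19 for Ddx58, -0.75 ± 0.19 for Ifih1, -0.49 ± 0.12 for Aim2 and -0.50 ± 0.14 for Nod1. The spread is visible in the levels, with Ifih1 at 455, 792 and 944 CPM (lowest, median and highest) under LPS and 311, 458 and 586 CPM under LPS+CCM. Without replicate 6, which gave the lowest Ifih1 and Ddx58 value of both groups, Ddx58 (-0.56 ± 0.11), Ifih1 (-0.76 ± 0.13), Dhx58 (-0.43 ± 0.08) and Aim2 (-0.55 ± 0.10) passed, where 1.27% of genes did. With replicate number as a block 6 passed, where 5.8% of genes did, although not every pair of same-numbered libraries deviated together (correlations of -0.102 to 0.813). For all of the 9 but Mavs, the LPS+CCM library was the lower one in 6 of 6 pairs with the same number. How many of all genes tested did so was not counted.

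A gene called in WT and not in KO is not thereby shown to respond differently, so the difference itself was tested. An interaction term for genotype and CCM, fitted on the LPS and LPS+CCM libraries, gave no call among the 9 in edgeR, DESeq2 or limma-voom, and no unadjusted p under 0.05. Its estimates lay between -0.17 (Nod1) and 0.09 (Zbp1), with 95% intervals that together spanned -1.01 to 0.76 on the log2 scale; the interval of Ifih1 was -0.58 to 0.56. Over all genes edgeR called 0% of 14546. The widest interval was that of Nod2 (-1.01 to 0.76).

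Without LPS, CCM gave no call among the 9 genes in WT by edgeR, DESeq2 or limma-voom, where edgeR called 0.057% of 14024 genes. An unadjusted p under 0.05 was found for 2 of the 9, Mavs and Tmem173, and for 1404 of all genes tested. Mavs stood at 48.5, 48.9 and 44.2 CPM with CCM against 40.1 to 42.1 CPM with vehicle, a log2 fold change of 0.21 ± 0.06 with a 95% interval of 0.08 to 0.35. Zbp1 measured 2.21, 3.54 and 4.51 CPM against 4.21 to 5.19 CPM (-0.41 ± 0.26). In KO edgeR called 0% of 13799 genes. There limma-voom called 3 of the 9 and 299 of 13799 genes, and DESeq2 none of the 9 and 24 of 16425 genes. An unadjusted p under 0.05 in edgeR was found for 2 of the 9 and for 333 of all genes tested. Libraries with the same replicate number deviated together in this comparison (correlations of 0.337 to 0.839), and those with different numbers did so less (median 0.223). With the number as a block, 4 of the 9 passed, where 3.11% of genes did: Zbp1 at -0.89 ± 0.18, Ddx58 at -0.46 ± 0.06, Dhx58 at -0.38 ± 0.08 and Mavs at 0.33 ± 0.06. Ddx58 and Mavs also passed without replicate 6 (-0.43 ± 0.07 and 0.37 ± 0.07), where 1.01% of genes did. Zbp1 had a median of 2.66 CPM (2.28 to 4.33) with CCM and 5.80 CPM (3.44 to 7.05) with vehicle, and was lower with CCM in 6 of 6 libraries with the same number.

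**Figure D4:**
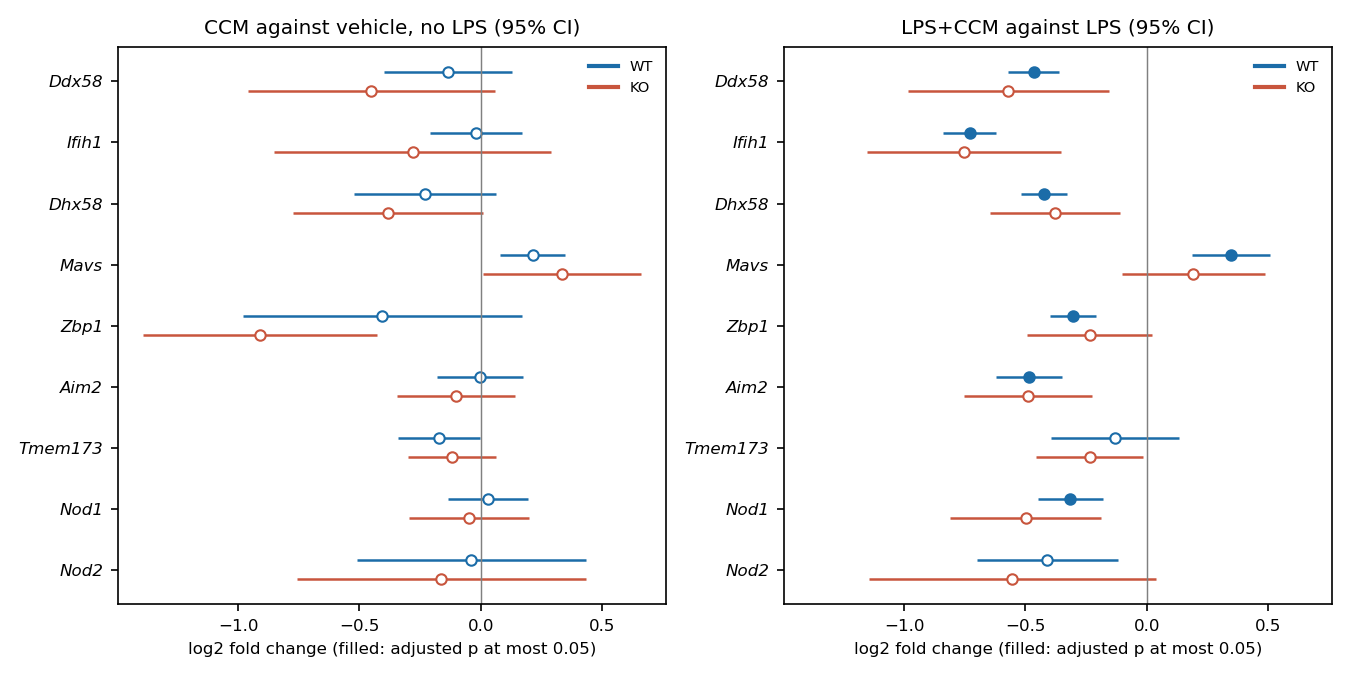
Log2 fold change of CCM with its 95% confidence interval for each gene, without LPS (left) and on top of LPS (right), WT in blue and KO in red; filled points passed an adjusted p of 0.05 in edgeR and open points did not. Under LPS both genotypes lie below 0 for every gene but Mavs, the 7 filled points are all WT, and the KO interval is the wider one for every gene but Tmem173.

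Whether CCM acted differently with and without LPS was tested by an interaction within each genotype. In WT the effect under LPS was more negative by 0.72 ± 0.09 log2 units for Ifih1 (interaction -0.72, edgeR adjusted p = 0.00294) and by 0.50 ± 0.11 for Aim2 (interaction -0.50, edgeR adjusted p = 0.0271), and these were the 2 genes of the 9 called, where edgeR called 2.09% of 14747. Nod1 did not pass in edgeR (-0.36 ± 0.09, adjusted p = 0.0576), but it passed with replicate number as a block, in DESeq2, with RLE size factors and without WT LPS+CCM replicate 2, at -0.43 to -0.36, and its adjusted p ran from 0.00737 to 1 over the alternatives. Ddx58 (-0.35 ± 0.12, edgeR adjusted p = 0.194) passed only in DESeq2 and in the fit of every gene with at least 1 count. Nod2 (-0.38 ± 0.25) and Dhx58 (-0.21 ± 0.13) passed under no alternative. The interaction estimates of Zbp1 (0.07, 95% interval -0.35 to 0.49), Mavs (0.12, -0.09 to 0.32) and Tmem173 (0.03, -0.30 to 0.35) were near 0. Leaving out 1 library at a time left Ifih1 called in 12 of 12 fits and Aim2 in 5 of 12. In KO no gene of the 9 passed in edgeR, where 0.00685% of 14588 genes did, in DESeq2 or in limma-voom. An unadjusted p under 0.05 in edgeR was found for 3 of the 9 and for 536 of all genes tested. The estimates ran from -0.46 (Ifih1) to 0.70 (Zbp1).

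Between genotypes no difference was detectable in any of the 9 genes at this depth and number of libraries. With vehicle, edgeR called 0% of 14385 genes between KO and WT and none of the 9, with 0 at an unadjusted p under 0.05; DESeq2 and limma-voom called none of the 9. The log2 differences, KO minus WT, lay between -0.17 (Mavs) and 0.27 (Zbp1), and their 95% intervals together spanned -0.55 to 0.81. With LPS, edgeR called 0% of 13794 genes, again with 0 of the 9 at an unadjusted p under 0.05 and none called by DESeq2 or limma-voom, and the differences lay between -0.18 (Ifih1) and 0.06 (Zbp1) with intervals spanning -0.67 to 0.35.

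When the 8 groups were ordered by mean level, the 4 groups with LPS stood above the 4 without for all 7 induced genes, and the ranges of the lowest group with LPS and the highest without did not overlap. Within each set of 4, every group overlapped its neighbour in the order. For Tmem173 the gap ran the other way, with group means of 26.8 to 31.0 CPM in the 4 groups without LPS and 17.4 to 21.6 CPM in the 4 with it. How many of all genes separated in either direction was not counted, and 63% of 14501 genes passed for LPS in WT. For Mavs no neighbouring groups were separate, from 47.2 CPM in WT CCM to 29.3 CPM in KO LPS.

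Genes of the surrounding pathways were read from 5 fixed lists of 53 genes, given here for WT. Of 12 genes of RIG-I-like receptor signalling 9 rose and 1 fell with LPS, among them Irf7, the interferon-inducible regulatory factor (6.15 ± 0.10), and Ikbke, a kinase that activates it (2.83 ± 0.06). Ifnb1, the interferon-β gene at the end of this pathway, had 0 counts in all 3 vehicle libraries and 1.30 to 1.95 CPM with LPS, at least 44.9-fold higher against a floor of 3 counts over the group. With that bound in place of its fitted value the list median was 1.33. With CCM on top of LPS 7 of the 11 genes tested fell and 0 rose, with Ifnb1 at -2.14 ± 0.35 and Irf7 at -0.45 ± 0.05.

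Of 9 genes that act on double-stranded RNA, 8 rose with LPS, led by Oasl1 (8.30 ± 0.13), Ddx60 (4.97 ± 0.08) and Oasl2 (4.59 ± 0.09). LPS+CCM lowered 8 of the 9, with Ddx60 at -0.56 ± 0.05. The list had 1 gene called lower with LPS and 1 called higher with LPS+CCM. Among 8 genes of DNA sensing and turnover that were tested, 4 rose and 4 fell with LPS, with Ifi204 (3.44 ± 0.06), a DNA-binding interferon-inducible protein, and Samhd1 (2.63 ± 0.06), a nucleotide hydrolase, at the top and Enpp1, which degrades the second messenger of STING, at -1.45 ± 0.10. LPS+CCM lowered 2 of them, Samhd1 (-0.45 ± 0.04) and Ifi204 (-0.42 ± 0.04). Trex1 was listed at 0 in all libraries, and its gene lies within Atrip on the same strand.

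Of 13 genes of NOD signalling 10 rose and 2 fell with LPS, the largest rises being those of the NF-κB inhibitors Tnfaip3 (3.79 ± 0.09) and Nfkbia (3.54 ± 0.07) and of Birc3 (3.30 ± 0.07). LPS+CCM lowered 5 and raised 1, with Ripk2, the kinase that NOD1 and NOD2 recruit, at -0.52 ± 0.06 and Birc2 at -0.33 ± 0.06. Of 10 genes downstream of AIM2 and ZBP1, 6 rose and 1 fell with LPS, including Il1b (10.66 ± 0.18), Mlkl, the pore-former of necroptosis (3.84 ± 0.07), and Il18 (3.60 ± 0.14). LPS+CCM lowered 6 and raised 0, with Il18 at -0.79 ± 0.09 and Mlkl at -0.50 ± 0.05. Some other genes of these lists were named after their values were seen: Nlrx1, Pycard, Card9 and Slc15a4 fell with LPS (-0.57, -0.42, -0.26 and -0.21), as did Rnaseh2a, Rnaseh2c and Dnase2a (-0.31, -0.81 and -1.30), and Card9 rose with LPS+CCM (0.19). In KO no gene of the 5 lists passed for LPS+CCM against LPS in edgeR, with list medians of -0.31 to -0.03, and without replicate 6 the downstream list had 2 genes called lower. Over all genes tested LPS raised 4441 and lowered 4698 of 14501, and LPS+CCM raised 564 and lowered 1057 of 13579.

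**Figure D5:**
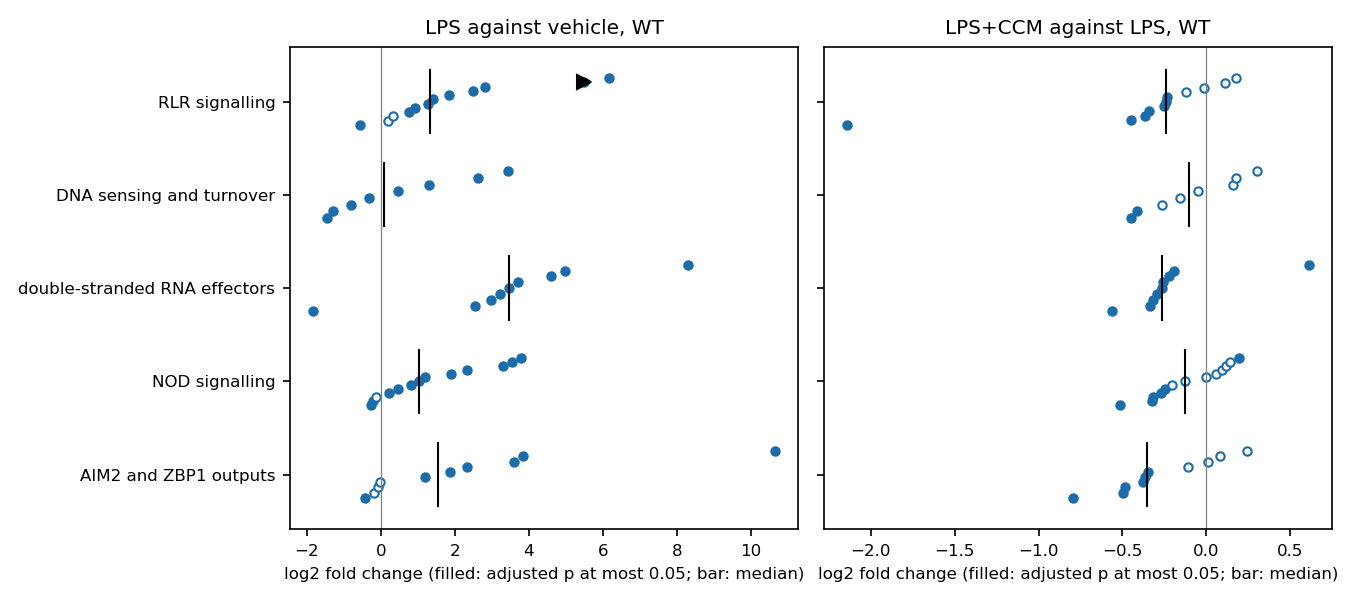
Log2 fold change in WT of each tested gene of the 5 pathway lists, LPS against vehicle (left) and LPS+CCM against LPS (right); filled points passed an adjusted p of 0.05 in edgeR, open points did not, vertical bars are list medians, and the black triangle is the lower bound for Ifnb1. Most points lie above 0 on the left and below 0 on the right.

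The genes whose log2 CPM followed each sensor most closely over the 12 WT libraries were, for Ddx58, Cmpk2 (Pearson r = 0.9998), Trim30a and Ifi204, and for Ifih1, Tap1 (r = 0.9995), Tor3a and Samd9l. Dhx58 was followed by Mndal, Ifi47 and Phf11a, and Zbp1 by Oasl2 (r = 0.9997), Ifitm3 and Isg15. For Nod1 they were Larp1, Cd47 and Eif4g2 and for Nod2 Peli1, Clcn7 and Ccl3, with r of 0.998 to 0.999 in WT and 0.930 to 0.990 over the 24 KO libraries. The pattern of Aim2 was closest to 1110038F14Rik, Nectin4 and Nub1 (r = 0.994 to 0.995 in WT and 0.618 to 0.934 in KO), that of Mavs to B4galt6, Tmem164 and Slc25a45 (r = 0.939 to 0.966 in WT and 0.673 to 0.866 in KO), and that of Tmem173 to Vim, Pdia3 and S100a6 (r = 0.974 to 0.979 in WT and 0.233 to 0.627 in KO). Since 12 libraries fall into 4 treatments and share their depth and scaling, these values describe likeness across treatments and carry no test.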

How the data were processed

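RNA from 36 macrophage samples was sequenced, and the authors trimmed reads with fastp, aligned them to mm10 with HISAT2 2.0.5 and counted them per gene with featureCounts 1.5.0-p3; the deposited values are these raw counts, and the strand setting is not given in the sources used here. Groups came from the sample labels. The low-count filter of edgeR 4.0.16 (R 4.3.3), TMM scaling and its quasi-likelihood test were applied to the libraries of each comparison across all genes, two-sided, with Benjamini-Hochberg adjustment and a threshold of 0.05. CPM per kb used the gene-model lengths deposited with the counts. Alternatives were DESeq2 1.42.0, limma 3.58.1 (voom with quality weights), other scalings and filters, 1 fit of all libraries, a replicate block and leaving out libraries. Code was tested on simulated data. No libraries of a group agreed within sampling noise (chi-square per degree of freedom at least 4.08).

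The 9 genes and the pathway lists were chosen with earlier results of these data known. Named were the 9 genes, Arntl, per list up to 3 called genes with the largest change with LPS and up to 2 with LPS+CCM in WT, and per gene the 3 closest patterns among 11465 genes. A pathway gene that this rule also names is not reported here. Same-numbered libraries were taken as pairs, from the data and not from the labels, where each pair's deviations from the group means correlated above 0.1: LPS in KO (0.300 to 0.830), CCM in KO (0.337 to 0.839) and LPS+CCM in WT (0.151 to 0.360). Libraries with different numbers correlated by a median of 0.175, 0.223 and -0.132 in the same order. In KO that median is above 0.1, so passing the cut-off does not by itself establish pairs there. For 5 of 6 numbers in each of these KO comparisons the same-numbered library was the best match.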

Additional observations from a re-analysis of the deposited data

Results flagged for a closer look

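In 36 sets of 6 KO libraries, each 1 gene in 1 treatment, 8 sets had a library whose gap to its nearest neighbour exceeded 0.625 of the range, and 7 of these were KO replicate 6; chance flags about 1 in 20. Ddx58 in replicate 6 stood at 13.6 CPM with vehicle (nearest library 25.3), 8.15 CPM with CCM (nearest 20.7) and 314 CPM with LPS (nearest 540). Ifih1 stood at 13 CPM with vehicle (nearest 26.2) and 7.45 CPM with CCM (nearest 22.8). Mavs stood at 26.1 CPM with CCM (nearest 44.5) and 23.2 CPM with LPS (nearest 29.2). The 8th was Zbp1 in KO CCM replicate 4, at 4.33 CPM where the nearest library had 2.76 CPM.

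The effect of CCM in WT differed between cells with and without LPS, by the interaction test in edgeR, for Ifih1 (-0.72 on the log2 scale) and Aim2 (-0.50).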

How the results depend on the processing

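Over the alternatives 1405 values were recomputed, of which 1258 stayed the same, 61 moved, 48 newly passed, 19 no longer passed and 19 changed sign. A fold change stayed the same if it kept its direction and side of the threshold. A mean level stayed the same if it shifted by less than the SD of its group, and otherwise moved. A count of genes called could change slightly and still stay the same, and otherwise moved. With all 36 libraries in 1 fit, 0 of the 9 genes passed for LPS+CCM in WT and 0 for the interaction of LPS and CCM in WT. That fit called 1 for CCM in KO (14 of all genes) and 2 for LPS+CCM in KO (285). DESeq2 called 4 for the interaction in WT (696 of all genes) and 2 for LPS+CCM in KO (180). Voom called 3 for CCM (299) and 8 for LPS+CCM (768) in KO. Library totals alone called 1 for the interaction in WT (347). Leaving out 1 WT library gave 1 to 3 for that interaction (149 to 295 of all genes). Leaving out 1 KO replicate number from both groups gave 0 to 2 for CCM (0 to 141 of all genes) and 0 to 4 for LPS+CCM (0 to 170). Any call among the 9 came only without replicate 6. Aim2 lost its interaction call without WT vehicle replicate 2, CCM replicate 1 or 2, any LPS replicate or LPS+CCM replicate 3. The causes were not tested.

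The replicate block gave 4 for CCM in KO. It gave 6 for LPS+CCM in KO, where the pairing was not met (lowest correlation -0.102), as it was not for LPS (0.0457) and CCM (0.0519) in WT. Its other changed calls, Mavs with LPS in KO, Nod2 with LPS+CCM in WT and Nod1 for the interaction in WT, stand with those results.

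Values near 0 changed sign. For CCM in WT, Aim2 was 0.01 with voom and with all libraries in 1 fit, and leaving out 1 library gave -0.07 to 0.07 for Aim2, -0.01 to 0.06 for Nod1, -0.19 to 0.07 for Nod2 and -0.08 to 0.03 for Ifih1. For the interaction in WT, Tmem173 was -0.06 with voom and -0.09 to 0.11 leaving out 1 library, and Zbp1 -0.16 to 0.34. The highest KO minus WT difference with LPS was -0.00 with voom. Mavs with LPS in WT did not pass with all libraries in 1 fit.

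Library totals alone moved the median of all genes with LPS from -0.05 to -0.47 in WT and to -0.44 in KO, and turned the calls from 4441 higher and 4698 lower to 2551 and 8060 in WT, and from 564 and 1057 to 1539 and 733 for LPS+CCM in WT. Over all genes, the single fit called 5644 with LPS in WT (9139 in edgeR) and 17 with LPS+CCM (1621), and the block 3220; for the interaction in WT (308) DESeq2 called 696, the block 548 and the fit of every gene with a count 721.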
